A study of Homo sapiens with 12 samples.

Results

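The microRNA repertoire of unperturbed K562 cells was described from 6 of the 12 small-RNA libraries of the series, 3 labelled sgNT and 3 labelled WT. K562 is an established human leukaemia line with erythroid and megakaryocytic features. The sgNT cells received a guide RNA with no intended target, atcgtttccgcttaacggcg, shown in lower case because no part of it is singled out. The WT cells are labelled wild type and received no guide. The series set sgNT beside cells with a guide to the non-coding RNA CYRANO (sgCYRANO) and WT beside ZSWIM8 knockout cells (ZSWIM8 KO), all K562 in serum-supplemented RPMI medium. Whether the sgNT cells are 1 clone, whether they carry Cas9, and whether both pairs were grown and sequenced together are not given in the sources used here. Guide, line and experiment cannot be told apart. Members were the microRNAs listed in both of the authors' deposited comparison tables, 753 in all, out of 837 in the table with sgNT and 868 in the table with WT.

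MicroRNAs are short RNAs cut by Drosha and Dicer from hairpin precursors. One strand of the hairpin, from its 5p or its 3p arm, is loaded into an Argonaute protein and pairs with messenger RNAs mainly through its seed, here bases 2 to 8 from the 5′ end. MicroRNAs with the same seed share many predicted targets. In blood, miR-451a, miR-144 and miR-486 are known as erythroid microRNAs, miR-126 as an endothelial and megakaryocytic microRNA, and miR-223 as a myeloid one.

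The sequences of the leading microRNAs are shown first because a few of them and their seeds held most of the reads. Mature sequences came from RefSeq (GRCh38.p14), which matched 683 of the 753 microRNAs and 264 of the 297 with a mean over both controls of 10 counts per 1000000 reads (CPM) or more. Seeds are in capitals and microRNAs with a common seed stand together.
miR-21-5p: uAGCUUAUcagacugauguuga
miR-92a-3p: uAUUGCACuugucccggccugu
miR-25-3p: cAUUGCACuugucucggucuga
miR-148a-3p: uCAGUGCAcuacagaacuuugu
miR-146b-5p: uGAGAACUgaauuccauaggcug
miR-26a-5p: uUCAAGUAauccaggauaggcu
miR-26b-5p: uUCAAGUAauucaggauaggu
miR-20a-5p: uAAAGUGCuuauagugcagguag
miR-17-5p: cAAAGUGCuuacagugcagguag
miR-126-3p: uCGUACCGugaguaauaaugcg
miR-10a-5p: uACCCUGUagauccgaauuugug
miR-191-5p: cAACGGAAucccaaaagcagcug
miR-128-3p: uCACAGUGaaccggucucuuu
Entries were missing for miR-30d-5p, miR-486-5p, miR-151a-3p and miR-451a.

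The microRNAs that differed most between the controls are shown next, first those higher in sgNT and then those higher in WT. None of the 7 shares a seed with another of them.
miR-516a-5p: uUCUCGAGgaaagaagcacuuuc
miR-34a-5p: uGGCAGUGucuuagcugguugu
miR-184: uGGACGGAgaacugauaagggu
miR-100-5p: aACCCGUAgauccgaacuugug
miR-584-5p: uUAUGGUUugccugggacugag
miR-202-5p: uUCCUAUGcauauacuucuuug
miR-194-3p: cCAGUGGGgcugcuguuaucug

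Each control enters as 1 group mean, recovered from the mean log2 CPM and the log2 fold change of its own table, with the second-named group read as numerator because the headers give no direction. Values of single libraries were not used here, so no test between the controls was made and no SD over libraries is given. Library totals, read from the smallest steps in the group means, ran from 1540000 to 2300000 reads in sgNT and from 860000 to 1850000 in WT. Taking 3 counts over a group as the limit for a mean of 0, a microRNA could be at up to 0.547 CPM in sgNT and 0.788 CPM in WT without a read. These limits cover counting error only, and reads without molecular identifiers are not independent molecules. The libraries are described as biological triplicates.

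Among the listed microRNAs the repertoire was narrow and nearly the same in both controls. The 10 most abundant microRNAs held 79.1% of CPM in sgNT (exact 95% binomial interval 79.10 to 79.17%) and 79.0% in WT (78.96 to 79.04%), intervals that cover counting error only. The 4 leading microRNAs held 61.9% and 62.0%, and 3 microRNAs were enough to pass 50% of CPM in each control. At the other end, 118 microRNAs held 99% in each. The effective number of microRNAs, the exponential of the Shannon entropy of the shares, was 18.4 in both controls. In sgNT 298 microRNAs reached 10 CPM and in WT 300, of which 289 shared microRNAs did so in both. At 1000 CPM or more there were 52 and 53, and at 10000 CPM or more 14 in each.

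**Figure D1:**
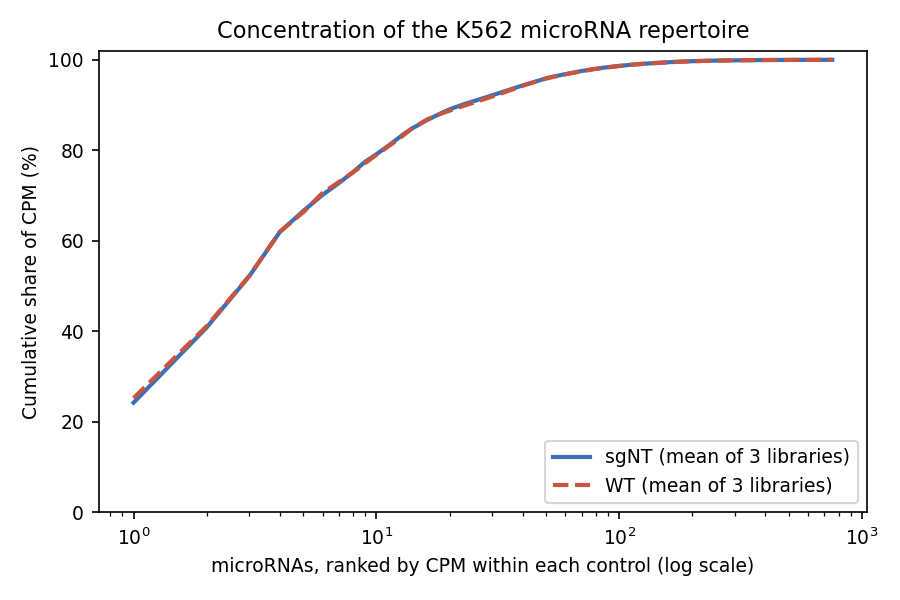
Cumulative share of CPM (vertical axis, %) against the rank of the shared microRNAs in each control (horizontal axis, log scale), 1 line per group mean of 3 libraries. The lines of sgNT and WT lie on each other, passing 61.9% and 62.0% at the fourth microRNA and 79.1% and 79.0% at the tenth.

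miR-21-5p, known as an oncogenic microRNA in many tumours, led both controls with 242548 CPM in sgNT and 252556 CPM in WT. Its hairpin lies on chromosome 17, where the mature strand spans 59841273 to 59841294 of GRCh38.p14, within an exon of VMP1 (GENCODE 29, same strand). miR-92a-3p, a strand of the miR-17-92 oncogenic polycistron, followed with 166175 and 159093 CPM. It is also encoded by a paralogue on the X chromosome, and its reads cannot be assigned to either copy.

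The third, miR-148a-3p, a regulator of DNA methyltransferases and of differentiation, stood at 113806 CPM in sgNT and 111261 in WT. The fourth, miR-146b-5p, a brake on innate immune signalling, stood at 96841 and 97280 CPM. For these 4, in order of rank, the log2 ratio of WT over sgNT was 0.06 ± 0.08, -0.06 ± 0.08, -0.03 ± 0.08 and 0.01 ± 0.08. The value after ± is an implied standard error, made from the deposited F statistics of both tables as the running median over 51 microRNAs of like abundance. It covers the spread among libraries within each comparison and does not cover a difference between the 2 experiments.

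The next ranks were held by miR-26a-5p, a repressor of EZH2, with 46793 CPM in sgNT and 43153 in WT, and by miR-126-3p with 35369 and 42776. miR-20a-5p (24296 and 23659 CPM), miR-10a-5p (26003 and 21179 CPM) and miR-30d-5p (23323 and 21115 CPM) came after them. miR-10a-5p lies within the HOXB gene cluster on chromosome 17. Of the 10 leading microRNAs 9 were common to both controls, of the 20 leading 19, and of the 50 leading 49. In sgNT the tenth was miR-191-5p (16168 CPM, against 14014 in WT), and in WT it was miR-25-3p (17966 CPM, against 15229 in sgNT). The most alike microRNAs at 1000 CPM or more included miR-423-3p, with 8859 CPM in sgNT and 8846 in WT, miR-17-5p with 15933 and 15692, miR-130b-5p with 6955 and 6843, and miR-19a-3p with 2965 and 3015.

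Grouping by seed adds the shares of its members, so higher leading shares follow in part from the grouping. Unmatched microRNAs, among them miR-30d-5p and miR-486-5p, were left out of the seeds. The 683 matched microRNAs had 595 distinct seeds, 542 of them carried by 1 microRNA, and the 10 leading seeds held 82.9% of all CPM in sgNT and 82.7% in WT. The seed AGCUUAU of miR-21-5p, shared with the scarce miR-590-5p, held 24.3% and 25.3%. AUUGCAC, the seed of miR-92a-3p, miR-25-3p, miR-92b-3p, miR-32-5p and miR-363-3p, held 18.4% and 18.0%, and CAGUGCA, the seed of miR-148a-3p, miR-148b-3p and miR-152-3p, held 11.7% and 11.4%. GAGAACU of the miR-146 pair held 9.71% and 9.75%, and UCAAGUA of the miR-26 family 5.31% and 4.86%. AAAGUGC, carried by 7 microRNAs led by miR-20a-5p, miR-17-5p and miR-93-5p, held 4.33% and 4.23%.

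Weighted by CPM, the first base differed from that of the list as a whole, while by number it differed less. Among the 683 matched microRNAs 44.9% began with U, but these held 88.5% of the matched CPM in sgNT and 88.2% in WT. Those that began with G were 8.35% of the microRNAs and held 0.271% and 0.282%, and none of the 48 matched microRNAs at 1000 CPM or more began with G. U comes first in the 4 leaders miR-21-5p, miR-92a-3p, miR-148a-3p and miR-146b-5p. These held 61.9% of CPM in sgNT and 62.0% in WT, so the values weighted by CPM rest largely on them. By number, U came first in 45.8% of the 264 matched microRNAs at 10 CPM or more and in 58.3% of the 48 at 1000 CPM or more. Below a mean of 10 CPM, 44.4% of 419 microRNAs began with U, and these held 42.7% of the CPM of that class in sgNT. The mean length was 21.9 bases over microRNAs and 22.2 bases when weighted by CPM, and the mean GC content was 50.4% over microRNAs and 44.1% weighted by sgNT CPM. Adapter ligation is known to depend on end sequence, and its part in these shares was not tested.

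Each list of a blood lineage held abundant microRNAs in both controls, and a few of them made up most of its sum. Others were scarcer, as miR-451a with 775 CPM in sgNT and 574 in WT. miR-342-5p of the lymphoid list had 13.9 and 15.9 CPM, and miR-125b-5p of the megakaryocytic list 4.69 and 9.97. All 6 erythroid microRNAs on the list were at 10 CPM or more, with summed levels of 13612 CPM in sgNT and 16624 in WT. miR-486-5p made up most of that sum, with 11701 and 14449 CPM. The 6 myeloid microRNAs summed to 343485 CPM in sgNT and 354294 in WT, nearly all of it miR-21-5p and miR-146b-5p, which are not restricted to myeloid cells. miR-223-5p stood at 2037 and 2712 CPM and miR-223-3p at 926 and 844 CPM. Of the 7 megakaryocytic and platelet microRNAs 6 were in both tables, summing to 62607 and 65476 CPM, led by miR-126-3p and miR-10a-5p. The 6 lymphoid microRNAs in both tables, of 8, summed to 3684 and 3871 CPM, most of it the pan-haematopoietic miR-142-3p (2566 and 2778 CPM). The B and T cell microRNAs miR-150-5p and miR-155-5p were not listed in both tables. Here and for the other tissues, not being listed is not read as a low level. miR-23a-3p and miR-27a-3p were not listed in both either, while their neighbour miR-24-3p had 2412 CPM in sgNT and 2315 in WT.

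Markers of other tissues were mostly low or not listed. Of the 7 muscle microRNAs 2 were listed in both tables, miR-499a-5p at 12.8 CPM in sgNT and 11.4 in WT and miR-1-3p at 1.28 and 0.748. The hepatocyte microRNA miR-122-5p was at 1.98 CPM in sgNT and 0.954 in WT. The 7 listed epithelial microRNAs summed to 93.5 and 122 CPM, of which miR-200c-3p made up 68.8 and 94.6. From the pluripotent list miR-372-3p (15.7 and 11.1 CPM) and miR-373-3p (10.0 and 4.72 CPM) were detected, and the 4 miR-302 strands were not listed in both tables. Exceptions were miR-128-3p, enriched in brain and known in haematopoiesis too, with 14025 and 14312 CPM, miR-9-5p, a neural microRNA, with 795 and 558 CPM, and miR-218-5p with 235 and 345 CPM. In bulk libraries, fewer cells with a microRNA and less of it per cell cannot be told apart.

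**Figure D2:**
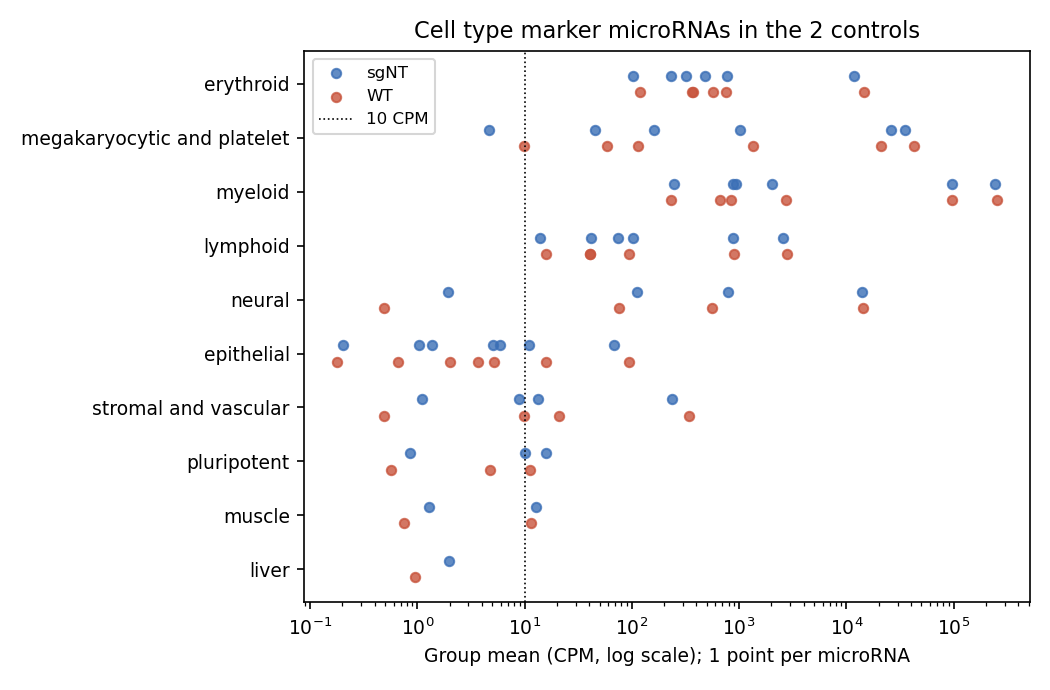
Group mean level (horizontal axis, CPM, log scale) of each listed microRNA of 10 cell type lists (vertical axis), blue for sgNT and red for WT, 1 point per microRNA and control, dotted line at 10 CPM. The erythroid points lie above 100 CPM, while muscle and liver points lie at or under 12.8 CPM, in both controls.

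The controls differed by little for most microRNAs. Over the 297 microRNAs that averaged at least 10 CPM, the log2 ratio of WT over sgNT had a median of 0.03 and an SD of 0.36, and 91.9% of them lay within 1.5-fold. Log2 CPM in the controls had a Pearson r of 0.993 and a Spearman rho of 0.984 across these microRNAs, given as a description since microRNAs of one library share its preparation. The SD was smaller at high abundance, with 0.43 at 10 to 30 CPM, 0.44 at 30 to 100 CPM, 0.28 at 100 to 1000 CPM and 0.21 in the 53 microRNAs at 1000 CPM or more, where all lay within 1.5-fold and the log2 ratio ran from -0.40 to 0.41. The median implied error over the same span went from 0.31 to 0.095, and the part of it that counting of reads gives went from 0.25 to 0.019. Over 2 implied errors from equality lay 74 of 297 microRNAs (24.9%), 38 higher in WT (12.8%) and 36 higher in sgNT (12.1%). At 1000 CPM or more 35.8% did.

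**Figure D3:**
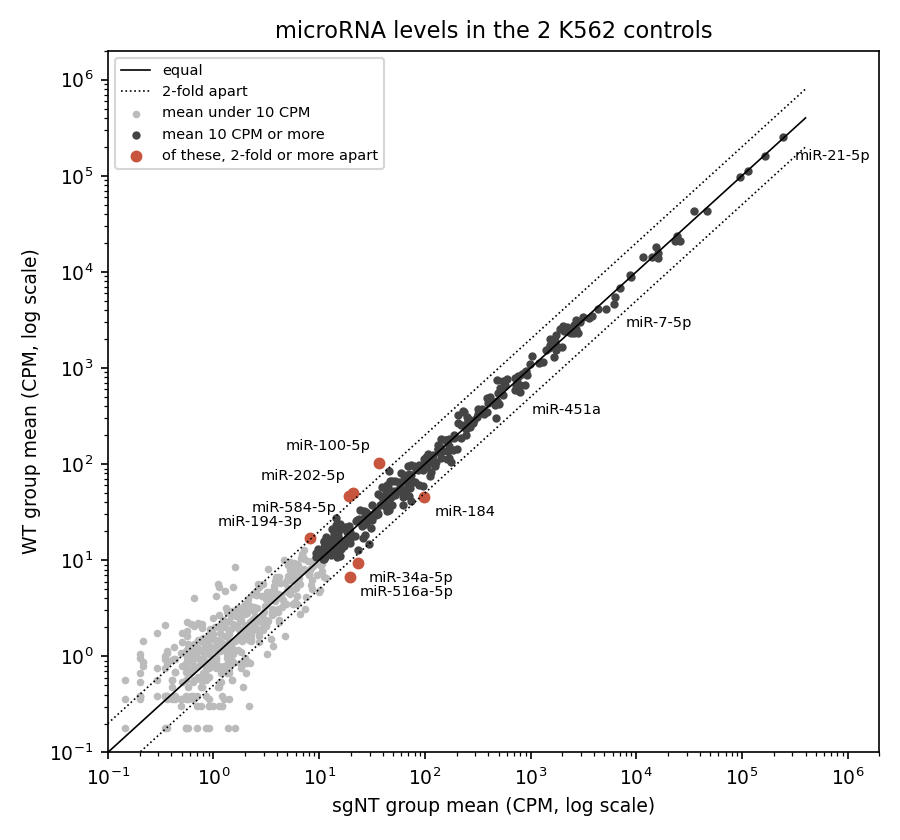
Group mean of WT (vertical axis, CPM, log scale) against that of sgNT (horizontal axis, CPM, log scale), 1 point per shared microRNA above 0 in both controls, with lines at equality and at 2-fold. The points at 10 CPM or more follow the line of equality (Pearson r 0.993), and the 7 red points past 2-fold all lie at means under 100 CPM.

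A 2-fold difference was rare. Among the 297 microRNAs, 4 were 2-fold or more higher in WT (1.35%) and 3 were 2-fold or more higher in sgNT (1.01%), 7 in all (2.36%). None of these reached a mean level of 100 CPM. These counts rest on the direction in which the fold changes were read. With the second table turned they were 23 and 11, and with both turned 19 and 9. Of the 7, 4 kept a 2-fold difference on the same side with the first table turned, 3 with the second turned and 3 with both, and those past it under every reading were miR-184 and miR-584-5p. The SD of the log2 ratio would be 0.40 with the first table turned, 0.77 with the second and 0.71 with both. Of the 297 microRNAs 65, 140 and 157 changed side, in that order. In the reading used, miR-7-5p was higher in sgCYRANO (34885 CPM) than in sgNT and higher in ZSWIM8 KO (23494 CPM) than in WT.

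The 4 microRNAs higher in WT have no common origin in the genome. miR-100-5p, a repressor of the mTOR pathway from an intron of MIR100HG on chromosome 11, had 36.7 CPM in sgNT and 104 in WT, 2.82-fold higher in WT, with an implied error of 0.21 on the log2 scale. Its own error, computed from its own F statistics without the running median, was 0.95, and with the second table turned its log2 ratio was -0.64. miR-584-5p, from an intron of SH3TC2 on chromosome 5, had 19.3 and 46.9 CPM (log2 ratio 1.28, implied error 0.22, own error 0.55). Both were thus clearer against microRNAs of like abundance than against their own spread.

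miR-202-5p, a microRNA best known from gonads, had 21.1 CPM in sgNT and 50.1 in WT (log2 ratio 1.25, implied error 0.26, own error 0.28). miR-194-3p, the minor strand of a microRNA of liver and intestine, had 8.27 and 17.0 CPM (log2 ratio 1.04, implied error 0.35). The own error of these members was close to that of their neighbours. With the second table turned their log2 ratios were 0.36 and 0.48, and with the first turned that of miR-194-3p was 0.88, all short of 2-fold. The major strand miR-194-5p, which 2 hairpins give, was nearly equal, with 446 CPM in sgNT and 442 in WT.

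On the sgNT side, miR-516a-5p of the placental chromosome 19 cluster had 19.4 CPM in sgNT and 6.62 in WT, a log2 ratio of -1.55 with an implied error of 0.30 and an own error of 0.90. Turning the second table gave 0.75. miR-34a-5p, a transcriptional target of p53, had 23.5 and 9.26 CPM (log2 ratio -1.34, implied error 0.38, own error 0.38), and a log2 ratio of -0.80 with the first table turned. miR-184, from a hairpin on chromosome 15 with no annotated host gene, had 98.9 and 45.6 CPM (log2 ratio -1.12, implied error 0.23, own error 0.23). Just inside 2-fold were miR-514a-3p (29.5 and 14.8 CPM, log2 ratio -0.99), miR-542-3p (-0.87), miR-181a-5p (-0.87), miR-1248 (14.5 and 27.8 CPM, 0.94) and miR-139-5p (46.2 and 85.7 CPM, 0.89). With the second table turned, miR-542-3p was at 0.64 and miR-181a-5p at -0.18.

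Set beside the other groups, the same 7 did not have 1 pattern. sgCYRANO, which shares its table with sgNT, had 58.4 CPM of miR-100-5p, 18.6 of miR-584-5p, 22.4 of miR-202-5p, 9.24 of miR-194-3p, 23.2 of miR-516a-5p, 16.2 of miR-34a-5p and 104 of miR-184. ZSWIM8 KO, which shares its table with WT, had 23.5 CPM of miR-100-5p, 156 of miR-584-5p, 27.0 of miR-202-5p, 11.5 of miR-194-3p, 32.6 of miR-516a-5p, 3.94 of miR-34a-5p and 24.2 of miR-184. Of the 7 sgCYRANO values 5 lay within 1.2-fold of sgNT, the exceptions being miR-100-5p and miR-34a-5p. The share of all 297 microRNAs within 1.2-fold was not counted, so this is not read as a trait of the 7. Over the 297, the interquartile range of the log2 ratio of sgCYRANO over sgNT was 0.26. Across the 297 microRNAs the log2 ratio had an SD of 0.26 for sgCYRANO over sgNT, 0.36 for WT over sgNT and 0.77 for ZSWIM8 KO over WT. A 2-fold difference either way was met by 1 microRNA in the first of these (0.337%), by 7 in the second (2.36%) and by 30 in the third (10.1%). The comparisons share control samples, so these widths are side by side values and not independent of each other.

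**Figure D4:**
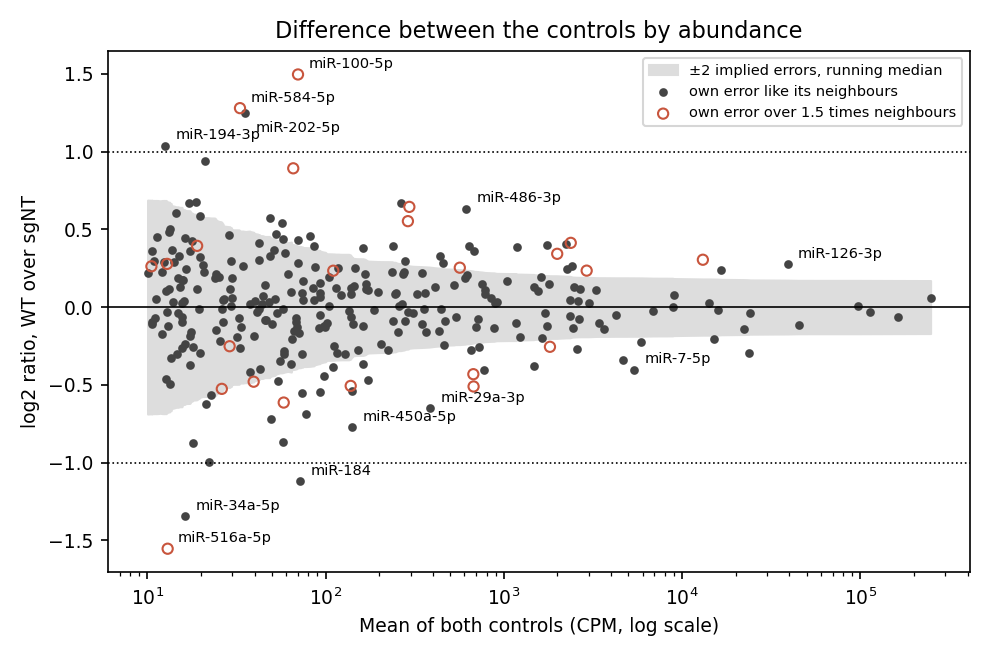
Log2 ratio of WT over sgNT (vertical axis) against the mean of both controls (horizontal axis, CPM, log scale), 1 point per microRNA at 10 CPM or more, with a grey band of 2 implied errors and dotted lines at 2-fold. Open red circles mark the 23 microRNAs whose own error is over 1.5 times that of their neighbours, among them miR-100-5p, miR-584-5p and miR-516a-5p, and the points narrow to between -0.40 and 0.41 at 1000 CPM or more.

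Among abundant microRNAs the differences were smaller but large against the implied error. miR-486-3p, the minor strand of an erythroid hairpin, had 482 CPM in sgNT and 748 in WT, a log2 ratio of 0.63 ± 0.12. miR-29a-3p, a repressor of collagens and of DNA methyltransferases, had 470 and 300 CPM (-0.65 ± 0.13). miR-7-5p, the microRNA that CYRANO directs to decay, had 6102 and 4617 CPM (-0.40 ± 0.09), but its log2 ratio was -2.92 with the first table turned and 1.94 with the second. Those of miR-486-3p and miR-29a-3p kept their side under each reading, at 0.23 and -0.30 with the second turned.

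Both strands of the miR-126 hairpin, which lies in an intron of EGFL7, were higher in WT. miR-126-3p had 35369 and 42776 CPM (0.27 ± 0.08) and miR-126-5p 1023 and 1338 CPM (0.39 ± 0.11). Such agreement was not general. Among 50 hairpins with both arms at 10 CPM or more and strands of no other hairpin, the arms lay on the same side in 27. The log2 ratios of their arms had a Pearson r of 0.28. Among the most abundant microRNAs, miR-10a-5p (-0.30 ± 0.09) and miR-125a-5p (5226 and 4126 CPM, -0.34 ± 0.09) were lower in WT. miR-1246 had 204 and 325 CPM (log2 ratio 0.67) and was chosen after its values were seen.

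For 23 of the 297 microRNAs (7.74%) the own error was over 1.5 times that of microRNAs of like abundance. The widest were strands of the chromosome 19 cluster, miR-516b-5p (1.29), miR-512-3p (1.25), miR-1323 (1.25) and miR-520a-3p (1.16), all with levels between 11.7 and 46.1 CPM in sgNT. They also included miR-451a, with 775 CPM in sgNT and 574 in WT, a log2 ratio of -0.43, an implied error of 0.11 and an own error of 0.38. miR-223-5p (log2 ratio 0.41, own error 0.28), miR-9-5p (-0.51, 0.25) and miR-10b-5p (-0.51, 0.41) were others. With own errors in place of the running median, 59 of 297 microRNAs lay over 2 errors from equality (19.9%).

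By family, counts of members were read against all 297 microRNAs, of which 158 were higher in WT (53.2%), with the list medians beside the overall median of 0.03. Over 2 implied errors lay 12.8% of the 297 on the WT side and 12.1% on the sgNT side. The lists were not tested, and their sides are those of the reading used. With the second table turned, the medians of the miR-182 cluster, Xq26, miR-30, miR-15/16, chromosome 19 and Xq28 lists changed side (-0.63, 0.37, 0.50, 0.13, 0.86 and 0.67), while those of let-7 (0.59), erythroid (0.27), 14q32 (0.94) and miR-29 (-0.21) microRNAs did not. The miR-15/16 median also changed side with the first table turned (0.07). The 7 let-7 microRNAs measured, repressors of growth genes that share the seed GAGGUAG, were all higher in WT, with a median log2 ratio of 0.29, and 2 passed 2 implied errors. let-7f-5p, the most abundant of these 7, had 3152 CPM in sgNT and 3402 in WT (0.11 ± 0.09), and miR-98-5p had 39.3 and 58.4 CPM (0.57 ± 0.21). let-7a-5p and let-7c-5p were not listed for both controls, so the family is incomplete here.

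Of the 6 erythroid microRNAs 5 were higher in WT (median 0.27). miR-486-5p had a log2 ratio of 0.30 with an own error of 0.15, and miR-144-5p had 230 and 360 CPM (0.64, own error 0.27). The sixth, miR-451a, was lower in WT. miR-144 and miR-451a come from 1 erythroid transcript. Their ratios lay on opposite sides, that of miR-451a at little more than its own error from equality.

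The 3 members of the miR-183, miR-96 and miR-182 cluster, sensory and proliferation-linked microRNAs, were higher in WT with a median of 0.40. miR-182-5p had 1919 and 2546 CPM (0.41 ± 0.10), miR-183-5p 1513 and 1993 (0.40 ± 0.10) and miR-96-5p 565 and 643 (0.19 ± 0.12). The 4 strands of the imprinted 14q32 locus at 10 CPM or more were also higher in WT (median 0.33), and 0 of them passed 2 implied errors.

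On the other side, both miR-29 members at 10 CPM or more were lower in WT (median -0.61), as was the third, miR-29c-3p, at 9.58 and 6.97 CPM. Of the 6 Xq26 strands 5 were lower in WT (median -0.36). miR-450a-5p had 178 CPM in sgNT and 104 in WT (-0.77 ± 0.16) and miR-450b-5p 114 and 83.7 (-0.44 ± 0.17), while miR-424-3p went the other way with 517 and 616 (0.25 ± 0.12). The 3 miR-30 members listed were lower in WT, with a median of -0.14 and 0 past 2 implied errors, while miR-30b-5p and miR-30c-5p were not listed for both controls. The miR-17-92 family and its paralogues, 8 at 10 CPM or more, lay close to equality with a median of -0.03, and their sums were 229413 and 224243 CPM. These sums leave out miR-18a-5p and miR-18b-5p, which were not listed for both controls. The miR-15/16 family, repressors of BCL2 and of cyclins, had 5 of 6 members at 10 CPM or more lower in WT (median -0.09) and 0 past 2 implied errors, with miR-16-5p at 1213 and 1132 CPM.

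Tissue-restricted clusters that are silent in most adult cells were also read. The placental chromosome 19 cluster had 15 of 17 listed strands in both tables, 5 of them at 10 CPM or more and 4 of those lower in WT (median -0.48), with summed levels of 172 CPM in sgNT and 129 in WT and the wide own errors given above. The cancer-testis pair miR-767-5p and miR-105-5p from Xq28 had 189 and 186 CPM and 169 and 155 CPM. Of microRNAs made without Drosha, miR-484, whose precursor is a capped transcript start, had 1408 and 1537 CPM, and the mirtron miR-877-5p, cut by splicing, had 15.1 and 14.7.

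The substrates of target-directed decay, in which a highly complementary target RNA triggers loss of the microRNA, set the starting point for the perturbed groups. Of 6 listed microRNAs 4 were in both tables. miR-221-3p and miR-222-3p, which share the seed GCUACAU and repress the cell cycle inhibitor p27 and the receptor KIT, are printed with miR-7-5p and miR-29b-3p to show the shared and the distinct seeds.
miR-7-5p: uGGAAGACuagugauuuuguuguu
miR-221-3p: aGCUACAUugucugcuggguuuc
miR-222-3p: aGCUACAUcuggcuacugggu
miR-29b-3p: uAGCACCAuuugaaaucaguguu
miR-222-3p had 206 CPM in sgNT and 271 in WT (0.39 ± 0.16), and miR-221-3p 134 and 160 (0.25 ± 0.18). Their passenger strands were scarce, with 11.1 and 15.5 CPM for miR-221-5p and 1.23 and 2.41 for miR-222-5p. miR-29b-3p had 27.1 and 18.3 CPM (-0.56 ± 0.29). These baselines depend on the direction read. With the second table turned the log2 ratio was -4.50 for miR-222-3p, -4.54 for miR-221-3p and -3.79 for miR-221-5p. The headers alone do not settle which control is higher for them, nor for miR-7-5p.

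Neighbouring microRNAs on a chromosome are often cut from 1 transcript. Strands within 10000 bases of each other on the same strand of GRCh38.p14 formed 13 clusters with 3 or more members at 10 CPM or more, 58 strands in all. The SD of the log2 ratio within a cluster had a median of 0.19, and the SD over all 58 strands was 0.32. These measures are unlike, since many clusters held only 3 strands and the widest, on chromosome 19, had an SD of 0.67. They are not read as agreement between neighbours. Of all 297 microRNAs 53.2% were higher in WT. In 2 of the 13 clusters, each of 3 strands, every strand lay on the same side, and how many would do so by that share was not computed. One was miR-191 with miR-425 on chromosome 3 (49020159 to 49020694), with 3 strands lower in WT and a median of -0.38. The other was the miR-182 cluster on chromosome 7 (129770406 to 129774988), whose 3 strands were all higher in sgNT with the second table turned. The cluster of miR-17 and miR-20a on chromosome 13, within exons of MIR17HG, had a median of -0.01, with miR-92a-1-5p lowest at 1675 CPM in sgNT and 1290 in WT (-0.38 ± 0.11).

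**Figure D5:**
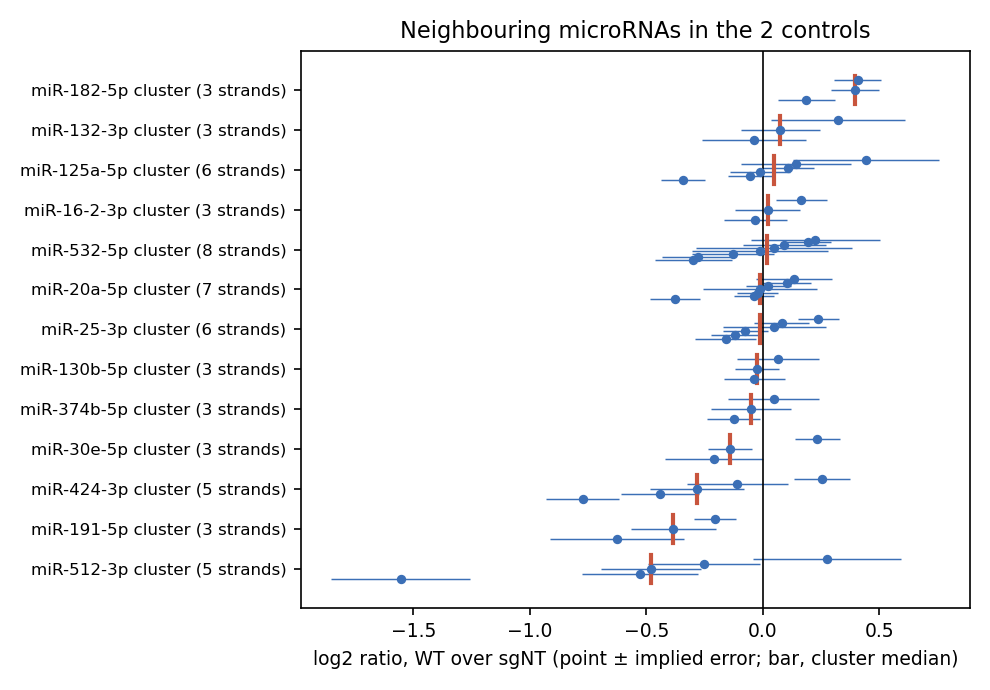
Log2 ratio of WT over sgNT (horizontal axis) of the 58 strands in 13 genomic clusters (vertical axis, named by their most abundant strand), each point with 1 implied error and red bars at cluster medians. The medians run from -0.48 for the chromosome 19 cluster of miR-512-3p to 0.40 for the miR-182 cluster.

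The choice of arm was alike in both controls. Of 111 hairpins with both arms listed and at least 10 CPM in each control, the 5p arm led in both for 65 and the 3p arm in both for 44. The share of the 5p arm differed by a median of 0.912 percentage points, and in 100 hairpins by under 5 points. The leading arm differed in 2 hairpins. In MIR181A2 the 5p arm held 54.6% in sgNT and 45.7% in WT, but miR-181a-5p also comes from MIR181A1, so its reads do not belong to that hairpin alone. In MIR29C it held 39.4% and 52.3%, from 6.22 CPM of miR-29c-5p and 9.58 of miR-29c-3p in sgNT and from 7.64 and 6.97 in WT. These levels are low, and the implied errors of the log2 ratios were 0.42 for miR-29c-5p and 0.41 for miR-29c-3p. miR-223 kept its 5p arm in the lead, with 68.7% in sgNT and 76.3% in WT.

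The low end of the list held many microRNAs and few reads. The 456 shared microRNAs with a mean under 10 CPM made up most of the list by number, and 615 of all 753 were above the limit of 3 counts in both controls. No shared microRNA had a mean of 0 in both, and 15 had a mean of 0 in 1 control, the highest of which reached 1.83 CPM in the other. The microRNAs listed in only 1 table were as scarce, with at most 1.98 CPM for the 84 found only in the table with sgNT and 2.89 CPM for the 115 found only in the table with WT. The shared microRNAs therefore held over 99% of the listed CPM of each control. A microRNA that is not listed has no part in these shares. Among those not listed for both controls were let-7a-5p, miR-23a-3p, miR-27a-3p and miR-30c-5p.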

How the data were processed

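The 6 control libraries of K562 small RNA (3 sgNT, 3 WT) were prepared, per the labels' protocols, with miRNeasy and NEBNext kits. Sequences were processed with bcl2fastq, FastQC 0.11.2, STAR, featureCounts and edgeR, with build hg19, per the submitters' processing notes, which give no roles or order. The sources used here do not give how reads shared by near-identical microRNAs or by hairpin copies were counted, so levels within such families are uncertain. Per the file headers, the authors deposited 2 comparison tables with log2 fold changes, mean levels as log2 CPM, F statistics (a score) and a p-value with its adjusted form, which was not used. Columns of single libraries were not used here.

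Group means in CPM were recovered by inverting the deposited log2 values (prior counts of 2 and 0.125, library of 1000000). The means of each group summed to 1000000. Implied errors divide each table's log2 fold change by the square root of its F, smoothed over 51 microRNAs and combined from both tables. Depths came from 3 read steps per group, which explained 220 of 220 values under 1 CPM in sgNT and 241 of 241 in WT within 0.0015 CPM. The inversion was tested on data simulated with the same formulas, so that test could not show whether the deposited values follow them. The depths were not tested. Sequences and positions are from RefSeq GRCh38.p14 and host genes from GENCODE 29. Python 3.11.15, numpy 2.4.6, pandas 2.3.3 and scipy 1.17.1 were used.

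The members and lists were chosen with earlier results of these data known. Named microRNAs are the 20 most abundant, all past 2-fold at a mean of 10 CPM or more, up to 5 of the most alike at 1000 CPM or more, hairpins with another leading arm, and examples or all members of the lists. Others were named after their values were seen, as the ones just inside 2-fold, those clear at high abundance or with wide own errors, and cluster members. Alternatives covered the direction of each table, prior counts, scaling, filters and the fold.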

Additional observations from a re-analysis of the deposited data

How the results depend on the processing

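No paired analysis was possible because each control is 1 recovered group mean, so the replicate block and leaving out libraries were not run. Turning the second table or both moved most named ratios, and turning the first moved 16 of 37. With the first table turned, 2 microRNAs were 2-fold higher in WT and the 10 leading ones held 77.7% of CPM in sgNT. With the second turned, 23 were higher in WT and 11 in sgNT, the share in WT was 76.8%, and 6 hairpins had another leading arm. With both turned, these were 19, 9, 77.7% in sgNT, 76.8% in WT and 4. Of the ratios followed, 4 of 37 changed side with the first turned, 13 of 36 with the second and 19 of 36 with both. miR-516a-5p went to 0.75 (second) and 0.49 (both), miR-100-5p to -0.64 and -1.31, miR-222-3p to -4.50 and -4.31, miR-221-3p to -4.54 and -4.27, miR-221-5p to -3.79 and -3.59, and miR-542-3p to 0.64 and 0.81. miR-7-5p was at -2.92 (first), 1.94 (second) and -0.57 (both). Counts higher in WT and in sgNT were 33 and 27 at a mean of 1 CPM or more, 34 and 19 with no filter but both above the limit of 3 counts, 0 and 0 at 100 CPM or more, 12 and 12 at 1.5-fold, and 0 and 0 at 3-fold. At 1 CPM in both controls 540 microRNAs were shared, and 137 at 100 CPM. Requiring 2 own errors as well, chosen after seeing the data, left 3 and 2. All 37 ratios followed for named microRNAs moved by less than their implied error without a prior count and under 3 rescalings, which shifted the centre by at most 0.03. miR-222-5p had no ratio with the second table turned, being listed at 0. Counting error limits the values under 30 CPM. Turning a table exchanges its group means.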
